A study of Mus musculus with 6 samples.

Results

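RNA sequencing measured 10 genes at the receiving end of bone morphogenetic protein (BMP) signalling in cultured mouse neural stem cells. They are the inhibitor of DNA binding genes Id1, Id2, Id3 and Id4, the receptor genes Bmpr1a, Bmpr1b and Bmpr2, and the SMAD genes Smad6, Smad7 and Smad9. They were chosen by name, with earlier results of these data known, and all 10 were found among the 29267 genes of the tables. The cells were of the OG2 strain and at passage 8 in every library. They were profiled as neural stem cells (NSC) or after differentiation, under the label D2. In each state there was a control library, a library with naloxone, an opioid receptor antagonist, and a library with DAMGO, a peptide that activates mu opioid receptors. Each of the 6 groups was 1 library. Doses and exposure times were not given in the sources used here, and no label says whether the libraries came from separate cultures. The p-values below therefore measure only the spread between these 6 libraries, which may be technical.

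BMP ligands bind a complex of type I receptors (BMPR1A, BMPR1B) and a type II receptor (BMPR2), and the type I receptor phosphorylates SMAD1, SMAD5 and SMAD9. These enter the nucleus with SMAD4 and activate direct targets, of which the Id genes are among the best known. ID proteins have a helix-loop-helix domain but no DNA-binding region, and they hold E proteins in pairs that cannot bind DNA, which restrains proneural and oligodendrocyte bHLH factors. SMAD6 and SMAD7 are inhibitory SMADs that the pathway induces and that close a feedback loop. In neural stem cells, BMP signalling is known for favouring astrocytes.

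The 6 libraries held 8417074 to 13561237 expected counts. A count of 0 in a library allowed a level of up to 0.221 to 0.356 CPM (counts scaled by TMM-adjusted library size), taking 3 counts as the limit, for counting error only. State and ligand were fitted together in edgeR over the 13216 genes that averaged 10 counts or more. The edgeR p-values rest largely on variance shared over all tested genes (9.45 prior against 2 residual degrees of freedom), not on each gene's own spread. Of the 10 genes, 9 were among them, and Smad6, with a mean of 3.17 counts, was not. Between states, 6 of the 9 rose and 2 fell (edgeR, adjusted p under 0.05). Over all tested genes 40% rose and 39.8% fell, so these counts are near the background. Id1, Id2 and Id4 rose by at least 2-fold, as did 15.9% of all tested genes. The median log2 change was 0.37 for the 9 genes and 0.00145 for all tested genes. CPM values of the states did not overlap for 6 genes that were higher and 2 that were lower in D2, against 41.3% and 40.9% of all tested genes.

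**Figure D1:**
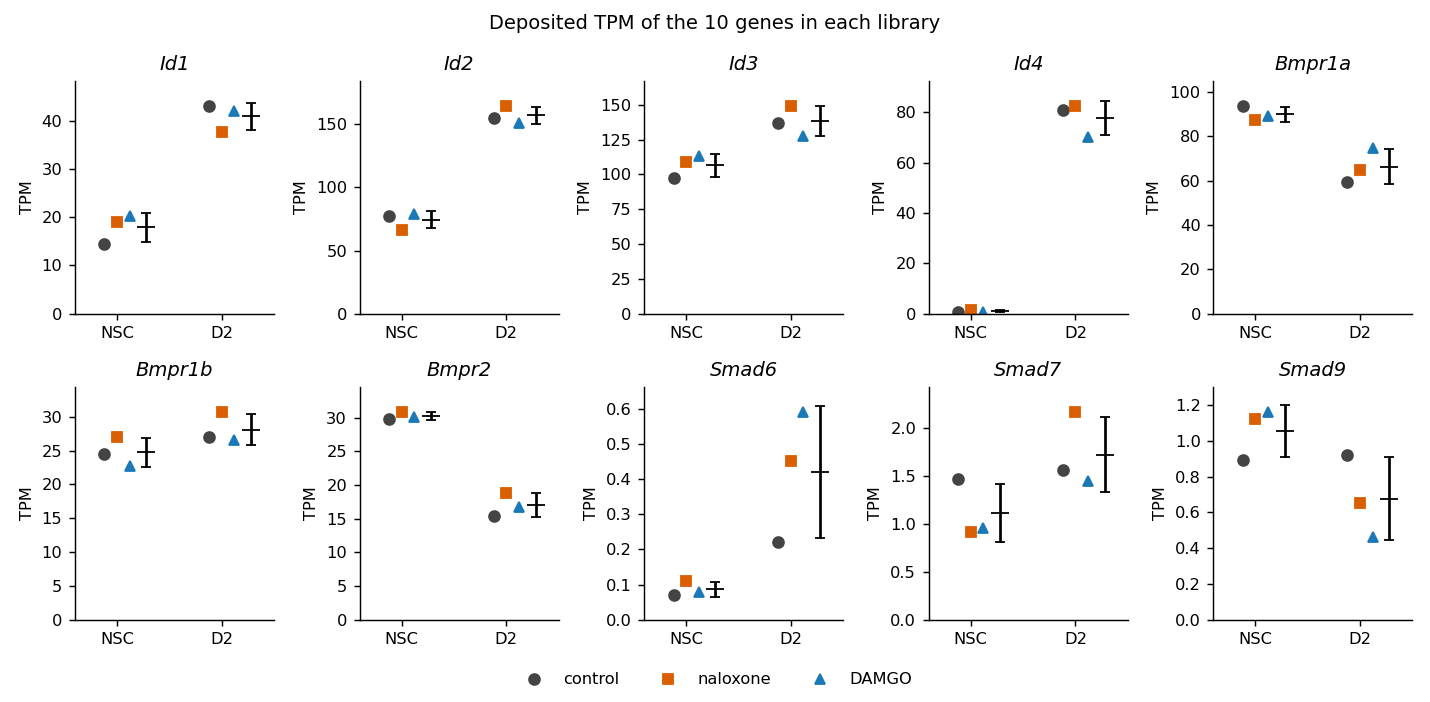
Deposited TPM (transcript abundance scaled for length and library) of each gene in the 6 libraries, on linear axes that start at 0, with circles for control, squares for naloxone and triangles for DAMGO. The bar beside each state is the mean and SD of its 3 libraries. Id4 sat at 0.600 to 1.31 TPM in NSC and at 70.0 to 82.5 TPM in D2.

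All 4 Id genes were higher in D2, and Id4 moved from a few counts to a level between those of the others. Id4 (chromosome 13, 48261228 to 48266026, mm10, plus strand) had 6, 13 and 4 counts in NSC with control, naloxone and DAMGO, and 604, 502 and 457 counts in D2. Every D2 library was far above every NSC library. The state difference passed (log2 change 6.35, SE 0.15, edgeR adjusted p = 5.38e-12). Each edgeR SE here is the absolute log2 change divided by the square root of the F statistic. DESeq2 gave a change of 6.39 with a larger SE of 0.35. The edgeR change ranked 29 by size among the 5287 genes that rose, and 0.272% of tested genes changed more in either direction. With so few NSC counts, the size was loose within single conditions. The D2 to NSC ratio was 105 without ligand (exact 95% counting interval 47.8 to 286), 61.7 with naloxone (35.7 to 117) and 117 with DAMGO (45.5 to 432). Id4 overlaps A330033J07Rik and Gm49291 on the opposite strand, and the library kit does not mark strand, so reads in the overlap cannot be told apart.

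The sequence before the RefSeq start is shown for Id4, because no other of the 10 genes rose as far, and for Id2. Id2 was the most abundant Id transcript in D2. Both are from RefSeq on GRCm38.p6 and read 5′ to 3′ on the gene's strand. Capitals mark GGCGCC, a GC-rich element that BMP SMADs are known to bind, and CCAAT or its complement ATTGG, the NF-Y box. The Id4 stretch is chr13:48260866-48261115 on the plus strand, the 250 bases before the RefSeq start. The Id2 stretch is chr12:25096254-25096342 on the minus strand, from 250 to 162 bases before the RefSeq start, and stops ahead of an annotated exon. GENCODE M21 places Id2 at 25093799 to 25097140, so this stretch lies inside the gene as annotated there. The 2 annotations differ in the start of Id2, and whether the stretch acts as a promoter was not tested.
Id4: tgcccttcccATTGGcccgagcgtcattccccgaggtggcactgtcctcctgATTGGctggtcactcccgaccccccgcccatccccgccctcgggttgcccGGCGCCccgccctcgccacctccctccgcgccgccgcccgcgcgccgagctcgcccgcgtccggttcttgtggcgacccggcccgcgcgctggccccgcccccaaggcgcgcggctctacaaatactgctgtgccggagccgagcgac
Id2: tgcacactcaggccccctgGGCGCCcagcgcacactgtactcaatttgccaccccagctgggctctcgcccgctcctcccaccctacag
Each stretch holds 1 GGCGCC, and the Id4 stretch also holds 2 ATTGG. Promoter entries were found for 8 of the 10 genes, all but Id1 and Smad7. Bmpr1b had 3 entries, and the motif matches given for it are those of the first one only. GGCGCC, which is its own complement, occurred in the 250 bases before the start for Id2, Id4, Bmpr1a, Bmpr2 and Smad9, 5 of the 8, and in 9.59% of all 32851 windows of that length. These 5 include genes that rose, genes that fell and a gene that did not pass. The 8 windows held 46.8% to 78.8% G and C, against a median of 52.4% over all windows. CCAAT, on either strand, occurred 3 times in the whole Id2 window, 2 times for Id4 and 1 time each for Bmpr1a and Bmpr1b. It occurred in 33.8% of all windows. Other motifs were scanned too, on either strand. GTCT occurred for Id2, Id3, Bmpr1b, Smad6 and Smad9 and in 82.9% of all windows. CAGACA occurred only for Bmpr1b and in 17.1% of windows, and GTCTAGAC for none of the 8 and in 0.167%. CANNTG, where N is any base, occurred for Id2, Bmpr1b and Smad9 and in 66.2%. These matches describe letters only.

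Id1 and Id2 rose by similar factors. Id1 (chromosome 2, 152736251 to 152737410) had 62, 104 and 73 counts in NSC with control, naloxone and DAMGO and 177, 127 and 150 counts in D2. On the CPM scale this was 7.20 ± 1.18 in NSC and 16.4 ± 1.27 in D2 (SD, n = 3 libraries), a rise that passed (log2 change 1.19, SE 0.14, edgeR adjusted p = 8.32e-06). The lowest NSC level and the highest D2 level were both in control libraries. The D2 to NSC ratio was 2.97 without ligand (2.21 to 4.03), 1.95 with naloxone (1.49 to 2.55) and 2.11 with DAMGO (1.58 to 2.83), with overlapping counting intervals. Id2 (chromosome 12, 25093799 to 25097140) had 43.1, 36.9 and 43.6 CPM in NSC and 85.8, 89.2 and 84.3 CPM in D2, and it rose (log2 change 1.08, SE 0.07, edgeR adjusted p = 4.81e-08). Neither gene had overlapping values between the states.

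Id3 changed least of the Id genes. Id3 (chromosome 4, 136143497 to 136145755) had 50.9, 55.5 and 58.0 CPM in NSC and 73.3, 72.8 and 65.5 CPM in D2, and it rose (log2 change 0.37, SE 0.07, edgeR adjusted p = 0.000593). Of all tested genes, 70.1% changed more in either direction. The values did not overlap, but the DAMGO libraries lay closest together. Their D2 to NSC ratio was 1.13 (interval 1.00 to 1.27), against 1.44 (1.29 to 1.61) without ligand.

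Levels per transcript length show the make-up of the Id transcripts. In NSC the deposited TPM was 106 ± 8.18 for Id3, 74.4 ± 6.70 for Id2, 17.9 ± 3.02 for Id1 and 0.893 ± 0.371 for Id4 (SD, n = 3), with no overlap between neighbours in that order. In D2 the order was Id2 at 157 ± 6.76, Id3 at 138 ± 10.7, Id4 at 77.8 ± 6.74 and Id1 at 40.9 ± 2.87 TPM. Id2 and Id3 changed places, and their D2 values came close without overlapping. The summed TPM of the 4 genes was 199.6 ± 11.7 in NSC and 414 ± 21.5 in D2. The share of Id4 in that sum was 0.452% ± 0.198 in NSC and 18.8% ± 0.776 in D2, and that of Id3 was 53.3% ± 2.19 in NSC and 33.3% ± 0.919 in D2. The share of Id2 (37.3% ± 3.39 in NSC and 38.0% ± 0.720 in D2) and that of Id1 (8.97% ± 1.16 in NSC and 9.92% ± 1.09 in D2) differed by less than their spread.

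**Figure D2:**
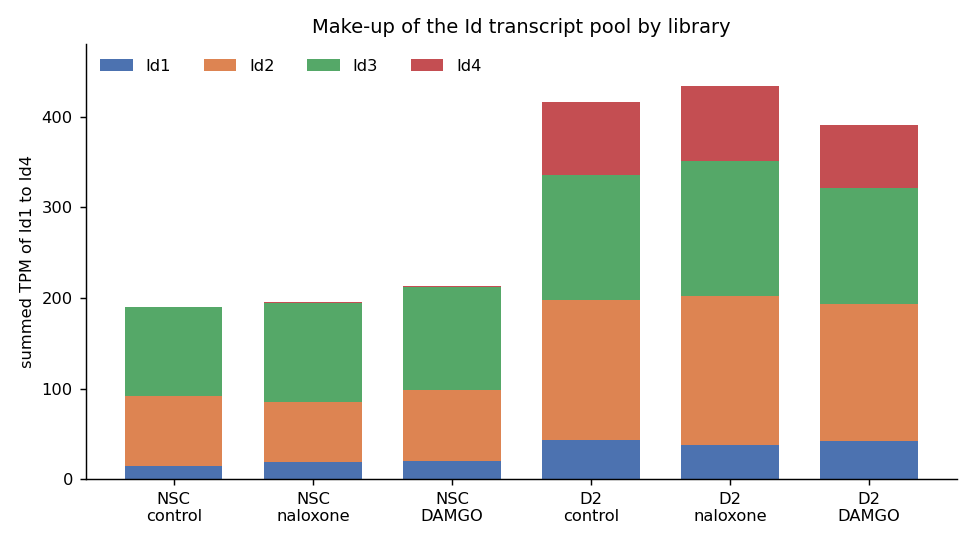
Summed TPM of Id1 to Id4 in each library, as stacked bars from 0, 1 bar per library. The bars reach 190 to 213 TPM in NSC and 391 to 434 TPM in D2, and the Id4 segment is thick only in the 3 D2 bars.

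The TPM ratio of Id2 to Id3 was 0.703 ± 0.0926 in NSC and 1.14 ± 0.0420 in D2, and that of Id1 to Id3 was 0.168 ± 0.0162 in NSC and 0.299 ± 0.0404 in D2. The ratio of Id4 to Id2 was 0.0124 ± 0.00639 in NSC and 0.495 ± 0.0295 in D2. For each of 5 such ratios between members, which include the receptor ratios below, the values of the states did not overlap. These are descriptions, since a 2-sided exact permutation test of 3 against 3 libraries cannot give a p under 0.1.

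The receptor genes moved in different directions. Bmpr2, the type II receptor (chromosome 1, 59763400 to 59879014), had 177, 181 and 179 CPM in NSC with control, naloxone and DAMGO and 91.3, 109.7 and 99.7 CPM in D2. It fell (log2 change -0.84, SE 0.06, edgeR adjusted p = 6.09e-08), and the NSC libraries lay close together. Bmpr1a, the broadly expressed type I receptor (chromosome 14, 34410734 to 34503341), had 225, 209.5 and 225 CPM in NSC and 151, 159 and 165 CPM in D2. It also fell (log2 change -0.47, SE 0.05, edgeR adjusted p = 5.21e-06), without overlap. Bmpr1b, a type I receptor with a narrower range of tissues (chromosome 3, 141837136 to 142169425), had 54.1, 55.2 and 51.8 CPM in NSC and 60.6, 69.6 and 61.3 CPM in D2. It rose slightly (log2 change 0.25, SE 0.06, edgeR adjusted p = 0.00382). With limma on log2(TPM + 1) it no longer passed (log2 difference 0.18, limma adjusted p = 0.0897), and its TPM values overlapped between the states.

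**Figure D3:**
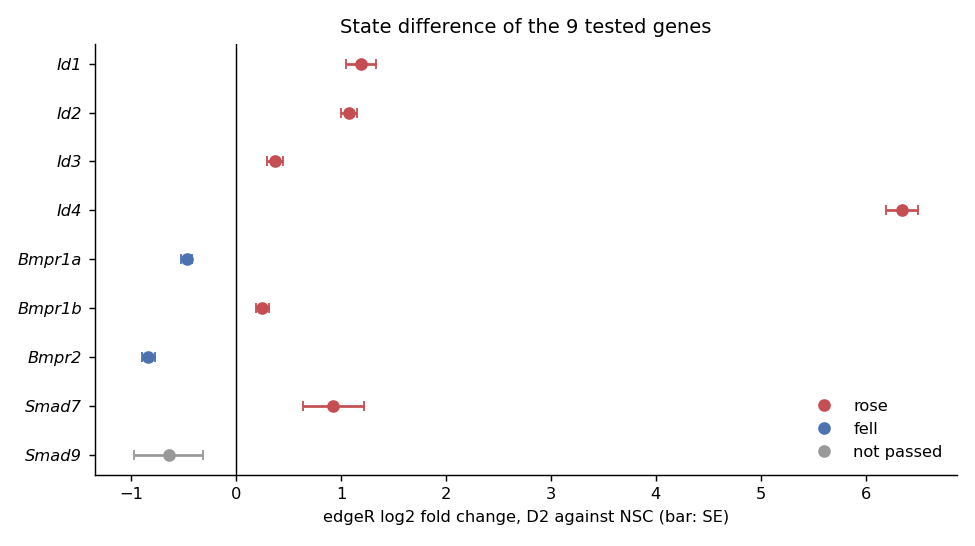
edgeR log2 fold change between D2 and NSC for the 9 tested genes, with the SE as a bar, red for rose, blue for fell and grey for not passed. The SE is derived from the F statistic. Id4 stands at 6.35, apart from the other 8, which lie between -0.84 and 1.19.

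Per transcript length, Bmpr1a was the most abundant receptor in both states, at 90.0 ± 3.34 TPM in NSC and 66.3 ± 7.79 TPM in D2. Bmpr2 and Bmpr1b changed order without overlap. Bmpr2 was at 30.3 ± 0.526 TPM in NSC and 17.0 ± 1.75 TPM in D2, and Bmpr1b at 24.7 ± 2.14 and 28.1 ± 2.28 TPM. The TPM ratio of Bmpr1a to Bmpr1b was 3.66 ± 0.373 in NSC and 2.38 ± 0.379 in D2, and that of Bmpr2 to both type I receptors together was 0.264 ± 0.0102 in NSC and 0.181 ± 0.0159 in D2. The mean transcript length that RSEM assigned to Bmpr1a, by which TPM is divided, ranged from 4825 bases in D2 with DAMGO to 5571 bases in the D2 control.

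The SMAD genes of the set were all low, and their results were the least certain. Smad7, an inhibitory SMAD for both BMP and TGF-beta receptors (chromosome 18, 75367529 to 75395935), had 13, 23 and 15 counts in NSC with control, naloxone and DAMGO and 31, 24 and 25 counts in D2. It rose (log2 change 0.93, SE 0.29, edgeR adjusted p = 0.0117), with no overlap in CPM. Without the NSC control library the call was lost (log2 change 0.74, edgeR adjusted p = 0.0622), as it was without the D2 control library (0.75, edgeR adjusted p = 0.0679). DESeq2 did not call it (0.93, adjusted p = 0.119), nor did limma on log2(TPM + 1) (0.37, adjusted p = 0.115). The TPM of Smad7 overlapped between states, and its assigned transcript length ranged from 1878 bases in the NSC control to 4278 bases in the D2 control.

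Smad6, the inhibitory SMAD that acts mainly on the BMP branch (chromosome 9, 63953076 to 64022059), had 1, 2 and 1 counts in NSC and 3, 5 and 7 counts in D2. Summed over ligands these are 4 and 15 counts, and the library-scaled ratio was 4.53, with counting error alone allowing 1.44 to 18.7. In a fit that kept all genes it did not pass (log2 change 2.06, SE 1.07, edgeR adjusted p = 0.0953). Smad9, a receptor-activated BMP SMAD (chromosome 3, 54755582 to 54801257), had 23, 37 and 26 counts in NSC and 23, 13 and 10 counts in D2. The states overlapped through the control libraries, and the difference did not pass (log2 change -0.65, SE 0.33, edgeR adjusted p = 0.0920). Without the NSC control library the log2 change was -1.07 (edgeR adjusted p = 0.0115) and without the D2 control library -1.05 (edgeR adjusted p = 0.0167), so leaving out either gave a call.

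**Figure D4:**
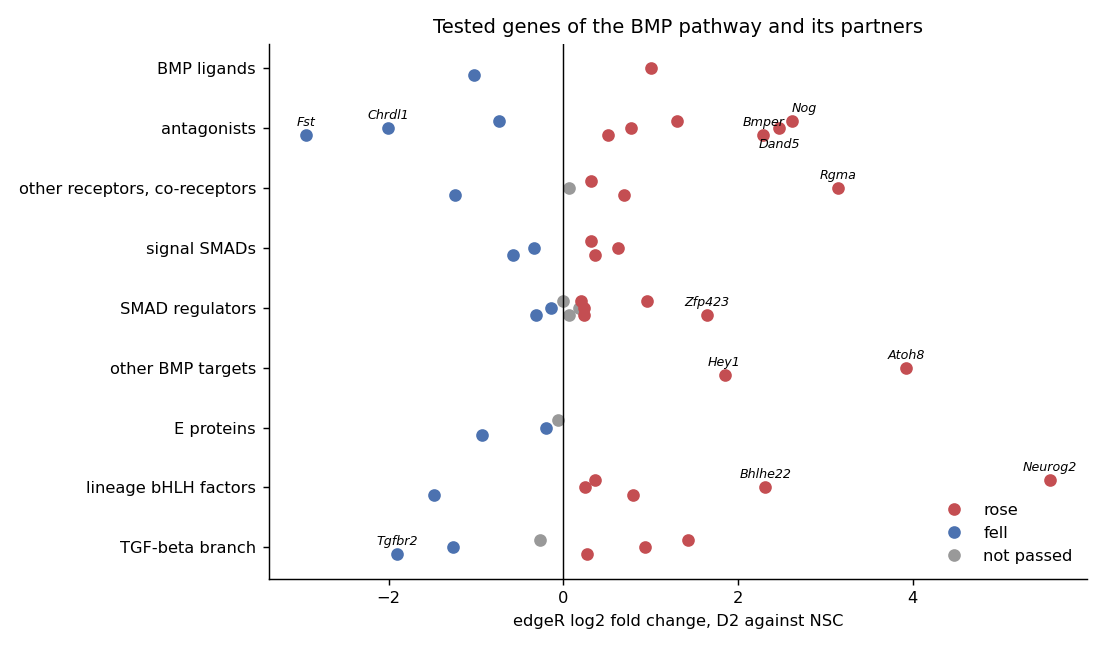
edgeR log2 fold change between D2 and NSC (horizontal axis) for each tested gene of 9 lists of the pathway and its partners, 1 point per gene, red for rose, blue for fell and grey for not passed. The genes farthest from 0 are named. Antagonists are spread from Fst at -2.95 to Nog at 2.62.

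The other genes of the pathway moved in both directions. In 9 lists with 89 genes, 48 genes were tested, of which 28 rose, 14 fell and 6 did not pass, where 40% of all tested genes rose and 39.8% fell. Of 16 BMP ligand genes, 2 were tested. Bmp7, a ligand of the receptors above, fell from 124 ± 8.66 to 60.9 ± 4.46 CPM (log2 change -1.02, SE 0.06, edgeR adjusted p = 1.78e-08). Gdf11, an activin-like ligand that signals mainly through SMAD2 and SMAD3, rose from 39.0 ± 1.71 to 77.7 ± 0.248 CPM (log2 change 1.00, SE 0.06, edgeR adjusted p = 2.65e-08). Bmp2 had 1 count summed over NSC and 14 over D2, and Bmp4 had 1 and 1. Bmp10, Gdf2 and Gdf5 were at 0 in every library, where 3 counts in all would be 0.0493 CPM.

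Of 16 antagonist genes, 9 were tested, 6 rose and 3 fell (median log2 change 0.77, against 0.00145 for all tested genes). Bmper, a secreted BMP-binding protein, rose from 22.4 ± 0.471 to 109 ± 0.925 CPM (log2 change 2.29, SE 0.07, edgeR adjusted p = 1.95e-11). Nbl1, a secreted antagonist of the DAN family, rose from 28.9 ± 1.85 to 71.2 ± 4.05 CPM (log2 change 1.30, SE 0.08, edgeR adjusted p = 1.18e-08). Chrd, which encodes the ligand trap chordin, also rose (log2 change 0.77, SE 0.19, edgeR adjusted p = 0.00245), as did Nog, which encodes noggin, from 0.639 ± 0.187 to 4.18 ± 0.958 CPM (log2 change 2.62, SE 0.35, edgeR adjusted p = 2.12e-05). Other antagonists went down. Chrdl1, a relative of chordin, fell from 49.5 ± 2.65 to 12.4 ± 2.39 CPM (log2 change -2.00, SE 0.10, edgeR adjusted p = 1.88e-09). Fst, which encodes follistatin, also fell (log2 change -2.95, SE 0.35, edgeR adjusted p = 7.97e-06).

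Among other receptors and co-receptors, 3 of 5 tested genes rose and 1 fell (median log2 change 0.31). Rgma, a membrane-anchored BMP co-receptor and guidance molecule, rose from 63.9 ± 2.77 to 565 ± 15.5 CPM (log2 change 3.14, SE 0.06, edgeR adjusted p = 5.67e-13), and its relative Rgmb rose less (log2 change 0.31, SE 0.12, edgeR adjusted p = 0.0271). Of the type II receptors shared with activin, Acvr2a fell (log2 change -1.24, SE 0.10, edgeR adjusted p = 2.26e-07), as Bmpr2 did, and Acvr2b rose (log2 change 0.70, SE 0.14, edgeR adjusted p = 0.000562). Acvr1, another type I receptor for BMPs, did not pass (log2 change 0.07, SE 0.10, edgeR adjusted p = 0.572).

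The signal-carrying SMADs were far more abundant than Smad9. The share of Smad1 in the summed TPM of Smad1, Smad5 and Smad9 was 22.1% ± 0.487 in NSC and 40.4% ± 1.01 in D2, and that of Smad9 was 0.682% ± 0.107 in NSC and 0.509% ± 0.176 in D2. Smad5 fell (log2 change -0.58, SE 0.06, edgeR adjusted p = 1.24e-06) and Smad1 rose (log2 change 0.63, SE 0.06, edgeR adjusted p = 1.2e-06). Of the SMADs of the TGF-beta branch, Smad3 rose (log2 change 0.36, SE 0.07, edgeR adjusted p = 0.000689) and Smad2 fell (log2 change -0.33, SE 0.06, edgeR adjusted p = 0.000476). Smad4, the common partner, rose (log2 change 0.32, SE 0.05, edgeR adjusted p = 0.000164).

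Among 10 regulators of SMAD activity or turnover, 5 rose, 2 fell and 3 did not pass (median log2 change 0.19). Zfp423, a zinc finger partner of BMP SMADs, rose most (log2 change 1.64, SE 0.09, edgeR adjusted p = 4.73e-09), followed by the antiproliferative factor Tob2 (log2 change 0.96, SE 0.07, edgeR adjusted p = 1.43e-07). The ubiquitin ligase gene Nedd4l rose slightly (log2 change 0.24, SE 0.07, edgeR adjusted p = 0.00701), and the phosphatase gene Ppm1a fell (log2 change -0.32, SE 0.06, edgeR adjusted p = 0.000374). Of 9 further genes known as BMP targets in other tissues, 2 were tested and both rose (median of these 2 genes 2.88). One of them, Atoh8, passed the count filter only through D2, where it was high. Of the 7 untested genes, Runx2 had 34 and 18 counts summed over NSC and D2, Dlx5 16 and 13, and Msx1 17 and 26. The rest had 10 counts or fewer over the 6 libraries. Hey1, which Notch also induces, rose from 23.1 ± 0.602 to 82.9 ± 3.59 CPM (log2 change 1.84, SE 0.07, edgeR adjusted p = 1.83e-10). Atoh8, a bHLH factor, rose from 14 to 184 counts summed over 3 libraries (log2 change 3.92, SE 0.30, edgeR adjusted p = 1.26e-07).

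Of 10 genes of the TGF-beta and activin branch, 6 were tested, 3 rose and 2 fell. The receptor genes Tgfbr2 (log2 change -1.90, SE 0.15) and Tgfbr1 (log2 change -1.27, SE 0.06) fell. The activin subunit gene Inhbb (log2 change 1.42, SE 0.07) and the activin receptor gene Acvr1b (log2 change 0.94, SE 0.07) rose, each of the 4 with an adjusted p of 1.86e-07 or less in edgeR.

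The partners of ID proteins did not rise with the Id genes. Of the 3 E proteins, Tcf4 fell from 641 ± 11.5 to 336 ± 28.6 CPM (log2 change -0.93, SE 0.05, edgeR adjusted p = 1.1e-08). Tcf12 fell slightly (log2 change -0.20, SE 0.05, edgeR adjusted p = 0.00463) and Tcf3 did not pass (log2 change -0.06, SE 0.05, edgeR adjusted p = 0.344). Of 12 bHLH factors of neuronal and oligodendrocyte lineages, which pair with E proteins, 6 were tested, 5 rose and 1 fell (median log2 change 0.58). Neurog2, a proneural factor, rose from 0.440 ± 0.0975 to 22.1 ± 2.80 CPM (log2 change 5.57, SE 0.21, edgeR adjusted p = 1.73e-10). Olig1 (log2 change 0.79, SE 0.04) and Olig2 (log2 change 0.25, SE 0.05) rose less, with an adjusted p of 0.000599 or less in edgeR.

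Markers of cell types also differed between the states, where 40% of all tested genes rose and 39.8% fell. All 10 astrocyte markers rose, and their summed level was 1171 to 1233 CPM in NSC and 7978 to 8229 CPM in D2. One of them, Gfap, passed the count filter only through D2, with 6 counts summed over NSC and 262 over D2. Of 9 tested markers of the oligodendrocyte lineage 8 rose and 1 fell, with sums of 3263 to 3387 CPM in NSC and 6230.1 to 6997 CPM in D2. Among those that rose, Sox10 (20 and 782 counts) and Mbp (26 and 86 counts) passed the filter only through D2. Olig1 and Olig2 made up most of the sums. Gpr17 rose from 3.71 ± 0.746 to 765 ± 54.8 CPM, and Cspg4 fell from 131 ± 7.39 to 90.0 ± 1.47 CPM. Neuronal markers summed to 1143 to 1201 CPM in NSC and 1248 to 1391 CPM in D2, and 3 of 7 tested rose and 2 fell. Map2, which did not pass (log2 change 0.02, SE 0.04, edgeR adjusted p = 0.726), made up most of these sums. They therefore say little about the other neuronal markers. Tubb3 (log2 change 3.13, SE 0.08) and Dcx (log2 change 2.88, SE 0.08) were among those that rose. Snap25 (log2 change -1.06, SE 0.31) and Syt1 (log2 change -0.30, SE 0.09) fell. Stem cell markers summed to 8321 to 8399 CPM in NSC and 5215 to 5560.0 CPM in D2, with 3 of 7 up and 4 down. Nes, which encodes the progenitor filament nestin, fell from 1837 ± 16.5 to 405 ± 8.68 CPM (log2 change -2.18, SE 0.04, edgeR adjusted p = 9.51e-13), and Hes1, a Notch target that holds progenitors, also fell (log2 change -1.41, SE 0.09, edgeR adjusted p = 3.33e-08). Mki67, which marks cycling cells, fell from 1518 ± 37.5 to 31.1 ± 9.44 CPM (log2 change -5.64, SE 0.12, edgeR adjusted p = 2.07e-12), while Sox2, a transcription factor of neural stem cells, rose (log2 change 0.63, SE 0.06, edgeR adjusted p = 5.49e-07). Endothelial markers (8 genes) summed to 4.08 to 5.19 CPM in NSC and 3.28 to 4.22 CPM in D2, with Cldn5 at 0 in every library. Fibroblast and pericyte markers (9 genes) summed to 11.6 to 19.6 CPM in NSC and 19.4 to 32.8 CPM in D2, with none at 0 in all libraries. Microglial markers (6 genes) summed to 1.41 to 1.98 CPM in NSC and 0.226 to 0.354 CPM in D2, with Cx3cr1 at 0. The part of a changing cell make-up in the Id, receptor and SMAD results was not tested. In bulk RNA, fewer cells of a type and less RNA per cell cannot be told apart.

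Genes with the profile most like each Id gene over the 6 libraries were ranked by Pearson's r of log2 CPM among 8029 genes of at least 20 CPM. For Id4 they were Pgpep1, Trim9 (r = 0.9997) and Gpc1 (0.9996). For Id2 they were Plekha7 (0.9989), Smad4 (0.9989) and Aamdc (0.9988). For Id1 they were Mesd (0.9965), Fam174b (0.9964) and Ppm1f (0.996). For Id3 they were Armc10 (0.9995), Tbc1d24 (0.9939) and Sik2 (0.9927). The points share the state split and the library scaling, so high values were common. An r above 0.95 was reached by 31.6% of these genes for Id4, 29.6% for Id2, 24.0% for Id1 and 3.38% for Id3.

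Neither ligand gave a call for any of the 10 genes. Over both states, 0 of 9 tested genes passed for naloxone or for DAMGO (edgeR, adjusted p under 0.05), against 0.0151% of all tested genes for each ligand. Of the 9, 0 had an unadjusted p under 0.05, against 2.22% and 2.4% of all tested genes, and DESeq2 also called 0. For naloxone the log2 change was 0.03 (SE 0.17) for Id1, -0.07 (SE 0.09) for Id2, 0.05 (SE 0.09) for Id3 and 0.04 (SE 0.13) for Id4. For DAMGO, which was set against the same control libraries, it was 0.15 (SE 0.17), -0.01 (SE 0.09), 0.01 (SE 0.09) and -0.20 (SE 0.13) in the same order. The receptor genes lay between -0.02 and 0.14 with either ligand, highest for Bmpr2 with naloxone at 0.14 (SE 0.07). Of the 48 tested genes of the pathway lists, 0 passed for either ligand in edgeR, and 2 and 1 had an unadjusted p under 0.05 for naloxone and DAMGO.

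**Figure D5:**
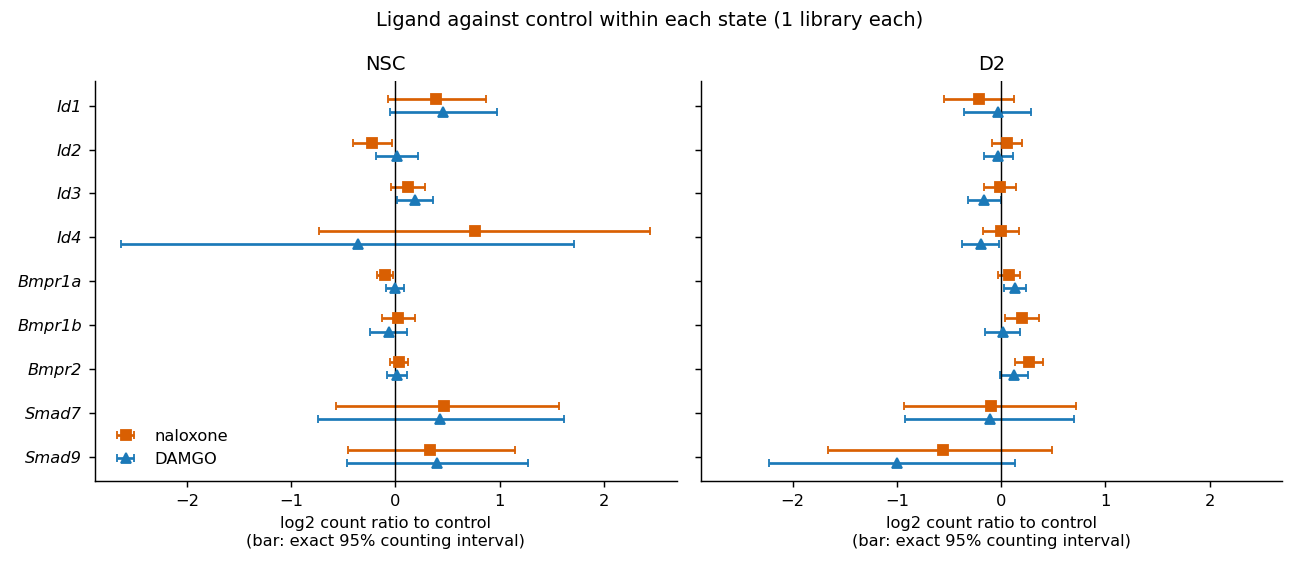
Library-scaled count ratio of each ligand library to the control library of the same state, on a log2 axis without a prior count, with the exact 95% counting interval as a bar. Squares are naloxone and triangles DAMGO, and Smad6 is not drawn. Intervals are widest for Id4 in NSC and for Smad7 and Smad9, and 8 of those drawn exclude 0 on this axis.

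Within a state, each ligand comparison rests on 2 libraries and has no test. Of the 10 genes, the counting interval excluded a ratio of 1 for 2 with naloxone and 1 with DAMGO in NSC, and for 2 with naloxone and 3 with DAMGO in D2. Over all tested genes this share was 8.91%, 7.78%, 21% and 16.7% in the same order. In NSC with naloxone they were Id2, at 36.9 against 43.1 CPM (ratio 0.857, interval 0.753 to 0.975), and Bmpr1a, at 209.5 against 225 CPM (ratio 0.933, interval 0.883 to 0.986). Both were lower than in the control. In D2 with naloxone Bmpr2 was at 109.7 against 91.3 CPM (ratio 1.20, interval 1.10 to 1.32) and Bmpr1b at 69.6 against 60.6 CPM (ratio 1.15, interval 1.02 to 1.29). Both were higher than in the control. With DAMGO in D2, Id4 was at 51.7 against 59.3 CPM (ratio 0.873, interval 0.771 to 0.987) and Bmpr1a at 165 against 151 CPM (ratio 1.10, interval 1.02 to 1.18). Id3 with DAMGO was higher than the control in NSC, at 58.0 against 50.9 CPM (ratio 1.14, interval 1.01 to 1.29), and lower in D2, at 65.5 against 73.3 CPM (ratio 0.894, interval 0.801 to 0.998). Over the Id and receptor genes, the log2 ratios ran from -0.26 to 0.62, both for Id4 in NSC, where it had 4 to 13 counts. Those of the SMAD genes, which also had few counts, ran from -0.88 for Smad9 to 0.99 for Smad6, both in D2 with DAMGO, and their counting intervals included a ratio of 1.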

How the data were processed

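RNA libraries (6, TruSeq RNA kit) were sequenced, per the labels' protocols. Bowtie, RSEM and the build mm10 are named per the submitters' processing notes. The sources used here give no versions or annotation. The authors deposited RSEM expected counts, TPM, FPKM (not used here) and mean transcript lengths per gene. Symbols and coordinates came from GENCODE M21, which matched 28756 of 29267 identifiers. Counts were rounded (a total moved by at most 46.1 counts). Genes averaging 10 counts or more (13216 genes, at least 99.8% of counts in each library) were fitted with edgeR 4.0.16 (TMM, glmQLFit, additive in state and ligand, 2 residual degrees of freedom), with Benjamini-Hochberg adjustment over all tested genes. Alternatives used DESeq2 1.42.0 and limma 3.58.1. The edgeR SE is the absolute log2 change divided by the square root of the F statistic. For the state change, DESeq2 gave a larger SE than this for every tested member. Id4, Nog, Neurog2 and Atoh8, low in NSC, and Fst, low in D2, passed the count filter only through the other state. So did Gfap, Sox10 and Mbp among the astrocyte and oligodendrocyte markers, which were low in NSC. For ligand ratios inside a state, log2 values carry a prior count of 2, and the binomial 95% intervals are exact and cover counting error only.

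The fit was also run on counts simulated from its own means and dispersions. Such counts cannot show whether single libraries give valid p-values, and no result here rests on them. The members, lists and markers were chosen with earlier results of these data known. Of each pathway list, up to 4 called genes with the largest change and a mean of at least 5 CPM were named, the E proteins always, and for each Id gene the 3 most similar genes (Smad4 among them). Marker lists are given as counts and sums. Nog, Fst, Atoh8, Acvr1, Bmp2, Bmp4, Runx2, Dlx5, Msx1 and the ligand genes at 0 were named after their values were seen. So were Nes, Hes1, Mki67, Sox2, Gfap, Sox10, Mbp, Gpr17, Cspg4, Map2, Tubb3, Dcx, Snap25 and Syt1 among the markers. A gene that this rule names among the bHLH factors is not reported here.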

Additional observations from a re-analysis of the deposited data

Results flagged for a closer look

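The ratio of Id3 with DAMGO to its control lay on opposite sides of 1 in the 2 states, and the counting interval excluded 1 in each. It was at 58.0 against 50.9 CPM in NSC (log2 ratio 0.19, exact 95% counting interval of the ratio 1.01 to 1.29) and at 65.5 against 73.3 CPM in D2 (log2 ratio -0.16, interval 0.801 to 0.998). The intervals cover counting error only, each value rests on 2 libraries, and how many of all tested genes do the same was not counted. The difference between states was not tested.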

How the results depend on the processing

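The state calls of Id1, Id2, Id3, Id4, Bmpr1a and Bmpr2 held under all 17 alternatives run, with log2 fold changes of 1.01 to 1.32, 0.97 to 1.14, 0.28 to 0.46, 5.39 to 6.75, -0.52 to -0.42 and -0.90 to -0.78. Bmpr1b lost its call under 2 (limma on either TPM scale) and Smad7 under 6; Smad9 gained one under 3, each without 1 or both control libraries. The cause was not tested. For naloxone, the numbers of all tested genes called higher and lower were 1 and 1 with edgeR, 20 and 25 without a filter on low counts, 0 and 0 with RLE size factors and with limma on log2(TPM + 1) or log2(TPM + 0.1), 1 and 0 with filterByExpr and with DESeq2, and 1 to 88 and 0 to 39 when single libraries were left out. For DAMGO they were 1 and 1 with edgeR, 46 and 37 without a filter, 1 and 0 with filterByExpr, 0 and 0 with DESeq2 and with either limma fit, and 1 to 119 and 3 to 41 when single libraries were left out, highest without the NSC control for both ligands. None of the 10 genes was called for a ligand in any of these. Of 160 alternative within-state ratios, 158 stayed within their counting intervals. The other 2 were TPM ratios, of Bmpr1a in D2 with DAMGO (log2 0.33) and of Smad7 in NSC with naloxone (log2 -0.62, against 0.42 in CPM). The labels carry no replicate numbers. Ligand was a term of the model, so the states were compared within each ligand condition, and without that term the same members were called. Smad6, Smad7 and Smad9 had at most 7, 31 and 37 counts in a library.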
